A study of Rattus norvegicus with 6 samples.

Results

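Matricellular genes were examined in rat tibialis anterior muscle, the main ankle flexor of the shin, after its nerve had been cut and later repaired. The set was given by 8 gene symbols, Thbs1, Thbs2, Thbs4, Ccn2, Postn, Spp1, Sparc and Tnc, and its members were all probe sets that the array's annotation assigns to one of these symbols alone. A total of 7 probe sets for 6 of the genes met this rule, of 15923 probe sets on the array. No probe set carried the single symbol Thbs1 or Thbs2, and these genes were not analysed here. Sparc had 2 probe sets and the other genes had 1 each. By genes, these were 6 of the 10411 named on the array. RNA came from 3 male Wistar rats, numbered 4, 5 and 6 and stated to be 8 weeks old. The peroneal nerve was cut and its end sutured to the biceps femoris, and 4 weeks later the proximal and distal stumps were joined. The rats survived for 8 weeks, taken here as following the repair. The stated age was read as that before the operations, not at collection. Operations were done under ketamine and xylazine. The ipsilateral and the contralateral muscle of each rat were measured on 1 array each, which gave 3 libraries per group. The contralateral muscle is that of an operated animal, and no unoperated animal was analysed here.

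Matricellular proteins are secreted into the extracellular matrix, where they act less as building material than as signals. They bind integrins, syndecans, CD36, CD44 and growth factors, and so alter how cells adhere, migrate and respond to load. Most are scarce in resting adult tissue and abundant in development, in repair and at sites under mechanical strain, such as the junction of muscle and tendon.

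The promoters of Ccn2, Thbs4 and Postn, the members with the highest ipsilateral over contralateral differences, and of Spp1, the member with the lowest, are shown so that the genes that went in opposite directions can be compared. Each runs from 250 bases before to 50 bases after the gene's start, from RefSeq's annotation of build GRCr8, on the gene's own strand. They lie at chr1:22624565-22624864 (minus strand) for Ccn2, chr2:25760296-25760595 (minus strand) for Thbs4, chr2:140677811-140678110 (plus strand) for Postn and chr14:5619755-5620054 (minus strand) for Spp1. The table held promoters of 7 of the 8 genes. Capitals mark GGAATG, the core of the element bound by TEAD factors, or its reverse complement CATTCC.
Ccn2: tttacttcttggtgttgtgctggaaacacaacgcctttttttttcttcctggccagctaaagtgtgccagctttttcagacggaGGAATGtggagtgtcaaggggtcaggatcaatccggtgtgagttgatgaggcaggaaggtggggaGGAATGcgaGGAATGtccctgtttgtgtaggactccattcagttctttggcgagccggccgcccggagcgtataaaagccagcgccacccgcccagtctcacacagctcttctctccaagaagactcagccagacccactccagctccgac
Thbs4: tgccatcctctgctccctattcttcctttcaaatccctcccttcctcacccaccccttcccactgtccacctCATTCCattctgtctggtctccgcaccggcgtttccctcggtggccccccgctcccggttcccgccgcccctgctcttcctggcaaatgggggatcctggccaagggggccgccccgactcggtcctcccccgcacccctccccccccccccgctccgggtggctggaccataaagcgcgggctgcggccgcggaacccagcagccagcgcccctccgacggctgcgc
Postn: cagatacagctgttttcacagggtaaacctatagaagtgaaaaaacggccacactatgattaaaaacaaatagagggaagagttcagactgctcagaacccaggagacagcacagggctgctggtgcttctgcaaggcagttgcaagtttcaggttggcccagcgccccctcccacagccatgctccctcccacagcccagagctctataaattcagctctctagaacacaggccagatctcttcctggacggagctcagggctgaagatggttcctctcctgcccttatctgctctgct
Spp1: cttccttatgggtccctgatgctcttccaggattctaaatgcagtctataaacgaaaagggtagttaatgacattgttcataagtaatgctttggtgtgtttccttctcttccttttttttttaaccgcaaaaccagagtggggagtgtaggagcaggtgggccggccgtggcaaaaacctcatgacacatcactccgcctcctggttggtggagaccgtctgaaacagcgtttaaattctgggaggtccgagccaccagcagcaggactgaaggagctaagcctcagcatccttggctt

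The Ccn2 promoter held GGAATG 3 times on the gene's strand, starting 166, 101 and 92 bases before the gene's start. The Thbs4 promoter held it once, on the other strand, and those of Postn and Spp1 did not hold these letters. Of the promoters not shown, that of Sparc, which differed little, held it once on the other strand, 33 bases before the start. That of Thbs1, which was not measured, held it once, 47 bases before the start, and that of Tnc did not hold it. Of 33469 rat promoters of the same length, 14.2% held the motif on either strand and 0.0956% held it at least 3 times. TATAAA, which 14.2% of the promoters held on either strand, stood 31 bases before the start of Ccn2, 44 before that of Postn and 204 before that of Spp1. The AP-1 motif TGAGTCA and its reverse complement TGACTCA (4.63% of promoters) and the CArG box of serum response factor (1.64%) were found in none of the 4 windows. No match overlapped another. These matches describe letters in a short window. No measurement here bears on binding.

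The arrays had been scaled to one level, with a mean of 150 without the lowest and highest 2% of values, and median intensities ran from 60.2 to 66.6. Transcripts of muscle fibres were bright in every library, from 5212.3 to 7388.5 for skeletal actin, Acta1. Both arrays of animal 4 had a lower intensity of the cre hybridisation spike, 1117 and 1476, against 2481 to 3605 on the other 4. The ratio of the 3' actin probe set to the middle one, a sign of RNA quality, was 2.77 in contralateral 4 and 2.87 in ipsilateral 6, and 1.36 to 1.68 in the other 4. The same ratio for GAPDH did not set these libraries apart. It was 1.15 in contralateral 4 and 1.19 in ipsilateral 6, and 1.02 to 1.21 in the other 4. Differences are log2 ratios, ipsilateral to contralateral, after adding 15.8 to each intensity, so that differences of dim probe sets are understated. Errors are the standard error (SE) of limma's paired fit over 3 animals, and group values are means ± SD of 3 libraries.

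In the formerly denervated muscle, Thbs4, Ccn2, Postn and Tnc had higher intensities in every animal, Spp1 had a lower intensity in every animal, and Sparc differed little. Mean intensity was 2.43 times the contralateral one for Thbs4, 2.7 times for Ccn2, 2.1 times for Postn, and 0.485 times for Spp1. None of those tested passed across the array. In limma's fit of 9519 probe sets bright enough to be tested, 0 (0%) passed an adjusted p of 0.05 (Benjamini-Hochberg), the smallest being 0.2. Without adjustment 605 (6.36%) passed 0.05, of which 340 (3.57%) were higher and 265 (2.78%) lower ipsilaterally. Of the 6 tested matricellular probe sets, 3 were in the former group (Thbs4, Ccn2 and Postn) and 1 in the latter (Spp1). The exact permutation test of a single gene, which flips the sign of 3 paired differences, cannot give a two-sided p below 0.25.

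A difference of one sign in all 3 animals was found for 5 of the 6 tested matricellular probe sets, 4 higher and 1 lower. The 4 were those of Thbs4, Ccn2 and Postn and the brighter of the 2 Sparc probe sets, and the 1 was Spp1. Tnc is not counted, since it was not tested. Over all tested probe sets, 12.3% were higher and 15.1% lower in all 3. For 3 of the 6, each ipsilateral library exceeded each contralateral one, as in 4.74% of all tested probe sets, and for 1 each lay below, as in 5.78%. The differences of the 6 ran from -0.84 (Spp1) to 1.42 (Ccn2), with Sparc counted by both its probe sets. Their median was 0.61, against -0.02 for all tested probe sets. In animals 4, 5 and 6 it was 0.17, 0.89 and 0.74, while the median of all tested probe sets was -0.02, -0.03 and 0.01.

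**Figure D1:**
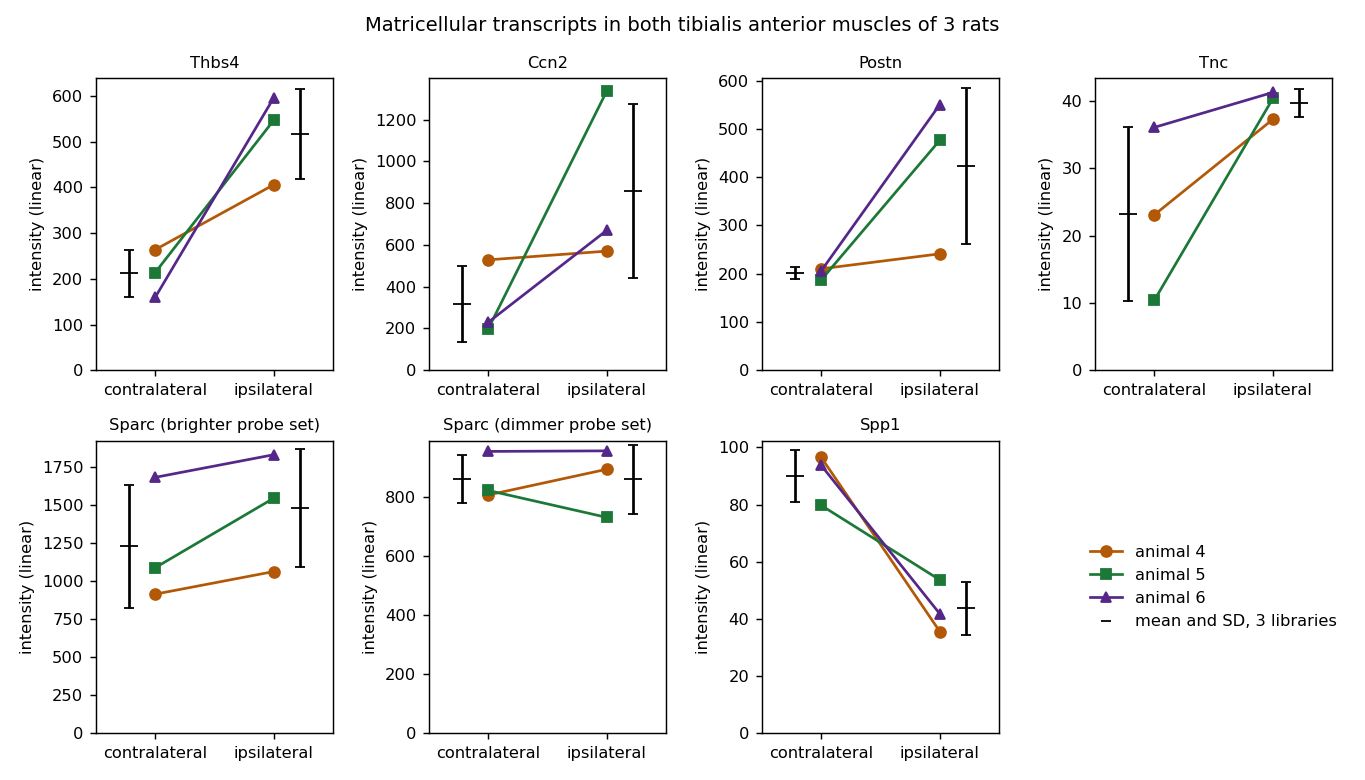
Intensity (linear axis from 0) of each matricellular probe set in the contralateral and ipsilateral muscle, with a line and a symbol per animal and the mean and SD of 3 libraries beside each group. Thbs4, Ccn2, Postn and Tnc are higher ipsilaterally without overlap, Spp1 is lower without overlap, and both Sparc probe sets overlap.

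Thbs4 encodes thrombospondin-4, a pentameric glycoprotein of muscle and tendon matrix. In animals 4, 5 and 6 its contralateral intensities were 263.8, 213.8 and 159.5, and its ipsilateral ones 406, 547.3 and 596.3. The groups did not overlap, and the animal with the lowest contralateral value had the highest ipsilateral one. The paired differences were 0.59, 1.29 and 1.80, with a mean of 1.23 (SE 0.22, limma adjusted p = 0.282), which is a 2.35-fold difference with a 95% interval of 1.67 to 3.3. Among the 9519 tested probe sets it ranked 22 from the highest. Within animals 4, 5 and 6 it ranked 325, 66 and 10, so that Thbs4 was the member that stood highest among all probe sets in animal 4. Without animal 4 the difference was 1.55 and passed (limma adjusted p = 9.49e-04), in a fit with only 1 residual degree of freedom. An unpaired fit without ipsilateral 4, which held the lowest ipsilateral value, gave 1.39 (adjusted p = 0.0156). Leaving out the animal with the smallest difference, or its ipsilateral muscle, raised the estimate, so these passes add no support. An unpaired fit without contralateral 4 and ipsilateral 6, the libraries with high actin ratios, gave 1.28 (adjusted p = 0.337). Without animal 5 the Thbs4 difference was 1.20 and without animal 6 it was 0.94, and neither passed. Over 12 alternative settings its adjusted p ran from 9.49e-04 to 1.

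Ccn2 encodes connective tissue growth factor, a secreted protein induced by TGF-beta and by mechanical load. Contralateral intensities were 528.3, 197.9 and 229.4 in animals 4, 5 and 6, against 570.1, 1336.7 and 669.7 ipsilaterally. The groups did not overlap, but contralateral 4 lay close to ipsilateral 4, which was the lowest of its group. The ipsilateral over contralateral ratio was only 1.08 in animal 4, but 6.75 and 2.92 in animals 5 and 6. The paired differences of 0.11, 2.66 and 1.48 had a mean of 1.42 (SE 0.37, limma adjusted p = 0.501), a 2.67-fold difference with a 95% interval of 1.5 to 4.74. It ranked 13 from the highest of all tested probe sets, 12 in animal 5 and 20 in animal 6, but 3157 in animal 4. The size rested on which animals were included. It was 2.07 without animal 4 (adjusted p = 9.49e-04, 1 residual degree of freedom), 1.38 without animal 6 and 0.79 without animal 5. An unpaired fit without ipsilateral 4 gave 1.66 and did not pass (adjusted p = 0.0785). An unpaired fit without contralateral 4 and ipsilateral 6, the libraries with high actin ratios, gave 1.96 (adjusted p = 0.337). The adjusted p of Ccn2 ran from 9.49e-04 to 1 over the alternatives.

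Postn encodes periostin, a matrix protein of fibroblasts that binds integrins and takes part in collagen crosslinking. The contralateral intensities were nearly equal, 210.2, 187.4 and 206.2 in animals 4, 5 and 6, a mean of 201 ± 12.2. The ipsilateral ones were 241.3, 476.9 and 550.8, a mean of 423 ± 162. All ipsilateral values lay above all contralateral ones, and the spread was on the ipsilateral side. The paired differences were 0.19, 1.28 and 1.35, with a mean of 0.94 (SE 0.23, limma adjusted p = 0.442), a 1.92-fold difference with a 95% interval of 1.35 to 2.73. Postn ranked 38 from the highest in the fit, 69 in animal 5, 26 in animal 6 and 2353 in animal 4. Without animal 4, which had the smallest difference, the estimate was 1.31 (adjusted p = 0.00125, 1 residual degree of freedom). The unpaired fit without ipsilateral 4, the lowest ipsilateral value, gave 1.28 (adjusted p = 0.00556). The unpaired fit without contralateral 4 and ipsilateral 6 gave 0.74 and did not pass (adjusted p = 0.982). The paired difference was 0.77 without animal 5 and 0.73 without animal 6, and neither passed. Over the 12 alternatives its adjusted p ran from 0.00125 to 1.

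Tnc encodes tenascin-C, a large hexameric glycoprotein of the muscle-tendon junction and of regenerating tissue. Its probe set was dim, with a mean log2 value of 5.51 against the limit of 5.86 for testing, so Tnc was not tested. Animals 4, 5 and 6 had contralateral intensities of 23.1, 10.4 and 36.1, and ipsilateral ones of 37.3, 40.4 and 41.3. The groups did not overlap, although contralateral 6 came close to ipsilateral 4, and the contralateral libraries were the more scattered (23.2 ± 12.9 against 39.7 ± 2.1). The paired differences were 0.45, 1.10 and 0.14. Of the 6347 probe sets below the limit, 10.6% were higher in all 3 animals and 3.78% were higher without overlap.

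Sparc encodes osteonectin, a collagen-binding glycoprotein of fibroblasts, endothelial cells and bone. The brighter probe set gave contralateral intensities of 913.7, 1087.8 and 1682.7 in animals 4, 5 and 6, and ipsilateral ones of 1062.5, 1545.6 and 1831.8. Each ipsilateral value exceeded that of the same animal, but the groups overlapped, and the range among animals within each group was wider than the difference between the muscles of any animal. Its difference was 0.28 (SE 0.14, limma adjusted p = 0.776), with a 95% interval of -0.04 to 0.60. The dimmer probe set gave 808.4, 823.7 and 956.4 contralaterally and 895.8, 732.2 and 958.3 ipsilaterally. Its difference was -0.01 (SE 0.14, adjusted p = 0.996), with an interval of -0.33 to 0.32. The probe sets parted most in animal 5, with 0.50 from the brighter and -0.17 from the dimmer one. The brighter one turned to -0.08 in the unpaired fit without contralateral 4 and ipsilateral 6.

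Spp1 encodes osteopontin, an integrin- and CD44-binding phosphoprotein made by macrophages, by bone cells and by injured muscle. It went the other way. Its contralateral intensities, again in the order of animals 4, 5 and 6, were 96.5, 79.7 and 93.7, a mean of 90 ± 9, and ipsilateral ones were 35.5, 53.6 and 41.7, a mean of 43.6 ± 9.2. The groups did not overlap, and the gap between them was wider than the range within either. Ipsilateral 4 and 6, at 35.5 and 41.7, lay under 42.4, the intensity that corresponds to the limit for testing. Spp1 was tested because its mean log2 value over all libraries, 6.30, exceeded the limit of 5.86. The paired differences were -1.13, -0.46 and -0.93, with a mean of -0.84 (SE 0.18, limma adjusted p = 0.333), which is 0.559 times the contralateral level with a 95% interval of 0.422 to 0.74. Spp1 ranked 14 from the lowest of all tested probe sets. It ranked 10 from the lowest in animal 4, 85 in animal 6 and 1086 in animal 5. It was -0.69 without animal 4 (adjusted p = 0.121), -1.03 without animal 5 and -0.80 without animal 6, and it did not pass under any of the 12 alternatives, with adjusted p from 0.0946 to 1.

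**Figure D2:**
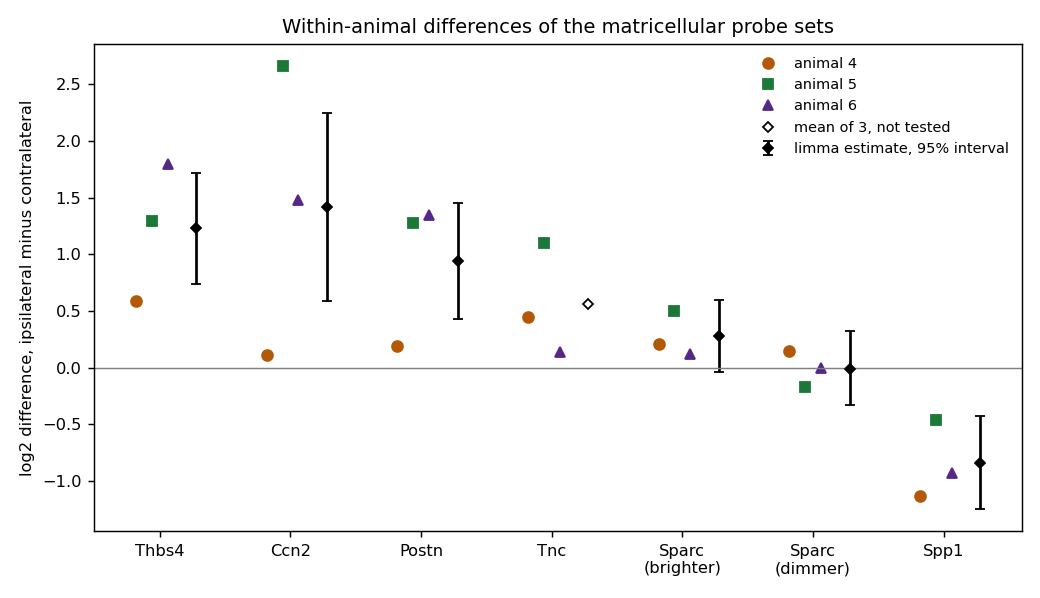
Log2 difference of ipsilateral over contralateral intensity in each animal (coloured symbols), with limma's estimate and its 95% interval (black, or open and without an interval for the untested Tnc). The intervals of Thbs4, Ccn2 and Postn lie above 0 and that of Spp1 below it before adjustment for the 9519 probe sets tested, and those of both Sparc probe sets include 0.

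The members with higher and with lower ipsilateral intensities were ordered differently by animal. Animal 4 had the smallest differences of Thbs4, Ccn2 and Postn and the largest of Spp1. Animal 5 had the largest difference of Ccn2 and the smallest of Spp1. The gap between Thbs4 and Spp1, as a difference of their log2 differences, was 1.72, 1.75 and 2.73 in animals 4, 5 and 6. For Ccn2 against Spp1 it was 1.24, 3.12 and 2.41, and for Postn against Spp1 it was 1.32, 1.74 and 2.28. The gaps for Thbs4 and Postn varied less among animals (SD 0.57 and 0.48) than that for Ccn2 (SD 0.95).

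**Figure D3:**
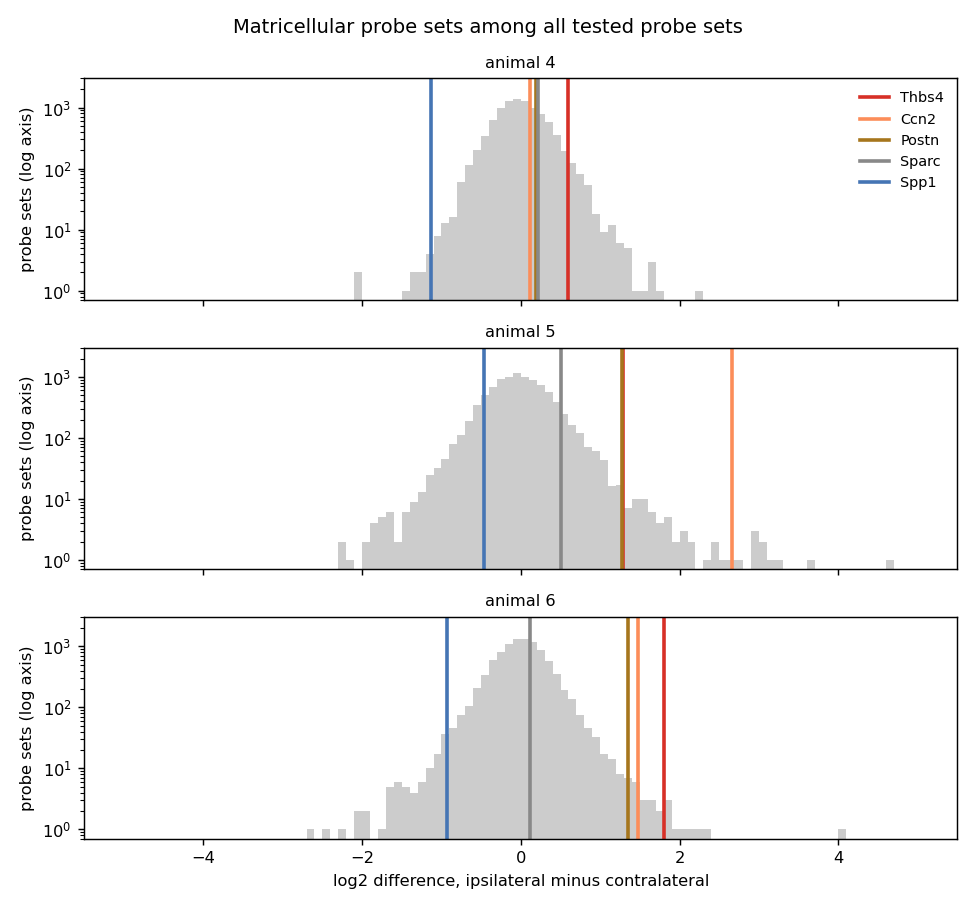
Number of the 9519 tested probe sets (log axis) by log2 difference of ipsilateral over contralateral intensity, one panel per animal, with lines for 5 matricellular genes (Sparc by its brighter probe set). In animal 4 Ccn2 and Postn lie near the centre and Spp1 in the lower tail, and in animals 5 and 6 Thbs4, Ccn2 and Postn lie in the upper tail.

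Probe sets of other genes with the most similar log2 profile over the 6 libraries were found by Pearson correlation among 4585 probe sets whose log2 values ranged over at least 0.5. With so many compared over 6 points, of which pairs share an animal, high values arise readily, and they are given as a description. For Thbs4 they were Meox2 (r = 0.987), a homeobox factor of limb muscle, and Atp1b4 (r = 0.972), a muscle protein of the Na,K-ATPase beta family. For Ccn2 they were Tfrc, the transferrin receptor (r = 0.997), and Tnni1, the slow skeletal troponin I (r = 0.992). Tnni1 differed by 0.08, 2.20 and 1.47 in animals 4, 5 and 6, in the same order as that of Ccn2. For Postn they were Mat2a, which makes S-adenosylmethionine (r = 0.99), and Emcn, an endothelial sialomucin (r = 0.984). For Spp1 they were the immediate early gene Fos (r = 0.96) and the nucleolar ATPase gene Nvl (r = 0.95), and Fos differed by -0.51, -0.21 and -0.50 in animals 4, 5 and 6. For Sparc they were Fundc1, a mitochondrial outer membrane protein (r = 0.987), and Ogn, the matrix proteoglycan osteoglycin (r = 0.986).

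The medians of 5 lists of other genes of the family and its pathways lay from -0.02 to 0.18. In each list 0 genes passed the adjusted threshold in either direction, and counts are given at an unadjusted p under 0.05 (3.57% of all tested probe sets higher, 2.78% lower). Genes higher and lower in all 3 animals, beside 12.3% and 15.1% of all tested probe sets, numbered 1 and 2 of 14 for other matricellular genes, 2 and 1 of 16 for receptors, 6 and 1 of 13 for TGF-beta signalling, 3 and 1 of 13 for the YAP, TEAD and SRF axis, and 4 and 1 of 17 for structural matrix partners. Of 14 other matricellular genes tested, 1 was higher and 1 lower, and the list median was -0.00. Mgp, matrix Gla protein, an inhibitor of calcification, went from 2336 ± 316 to 3122 ± 412, a difference of 0.42 (SE 0.12), with 0.34, 0.57 and 0.34 in animals 4, 5 and 6. Lgals3, the macrophage lectin galectin-3, went from 337 ± 22.7 to 262 ± 40.8, a difference of -0.36 (SE 0.15). Sparcl1, the closest relative of Sparc, differed by 0.34 (SE 0.16) and Ccn5, a relative of Ccn2, by 0.34 (SE 0.20), each slightly below 0 in animal 4.

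Of 16 tested genes for receptors of matricellular proteins, 1 was higher and 0 were lower, with a median of 0.13. Cd36, which binds thrombospondins and carries fatty acids, differed by 0.57 (SE 0.17), with 0.55, 0.94 and 0.23 in animals 4, 5 and 6. The integrin subunits Itga7 and Itgb5 differed by 0.31 (SE 0.21) and -0.17 (SE 0.15) and syndecan-2, Sdc2, by 0.20 (SE 0.18). The second probe set of Sdc2 gave -0.22. Of 13 tested genes of TGF-beta signalling, 3 were higher and 0 lower, with a median of 0.18. They were Skil, a feedback inhibitor of Smad proteins (0.58, SE 0.17), the procollagen protease Bmp1 (0.40, SE 0.15) and Ltbp1, which anchors latent TGF-beta in the matrix (0.52, SE 0.20). Tgfb2, a ligand, differed by 0.36 (SE 0.17).

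Of 13 tested genes of the YAP, TEAD and SRF axis, which carries mechanical signals to the nucleus, 1 was higher and 0 lower, with a median of -0.02. That gene was Ankrd1, a stretch-responsive titin-binding protein and YAP target, with a difference of 2.05 (SE 0.41) and with 0.74, 3.63 and 1.79 in animals 4, 5 and 6. Ajuba, Mrtfa and Stk4 differed by 0.32 (SE 0.17), -0.26 (SE 0.16) and -0.25 (SE 0.17). The second probe set of Ajuba gave -0.18. Of 17 structural matrix partners, 4 were higher and 0 lower, with a median of 0.04. Beside the proteoglycans Fmod (0.83, SE 0.20), Bgn (0.76, SE 0.21) and Lum (0.39, SE 0.16), this was Lox, the enzyme that crosslinks collagen, at 0.74 (SE 0.22). The Bgn difference was 0.12, 1.15 and 1.01 in animals 4, 5 and 6, and that of Fmod was 1.45, 0.48 and 0.57.

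**Figure D4:**
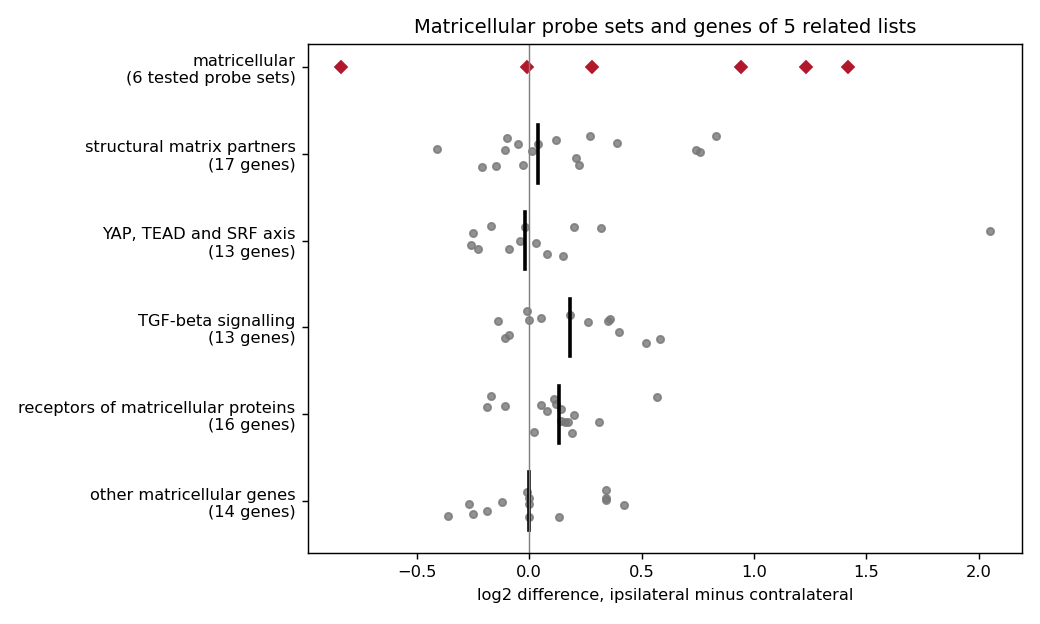
Log2 difference of ipsilateral over contralateral intensity for each gene (brightest tested probe set, grey points) of 5 lists, with the list median (black bar), below the 6 tested matricellular probe sets (diamonds). List medians lie between -0.02 and 0.18, and Ankrd1 at 2.05 lies to the right of Ccn2 at 1.42.

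These are whole-muscle samples, in which fewer cells of a type and less RNA per cell cannot be told apart, and markers of other cells differed beside some members. Beside the lower Spp1, all 7 measured macrophage markers were above the limit for testing. Of these, 4 were lower and 0 higher in all 3 animals, beside 15.1% and 12.3% of all tested probe sets. The summed intensity of these markers was 2268 to 2526 contralaterally and 1561 to 2341 ipsilaterally. Without the brightest, Lyz2, the sums were 810 to 987 and 622 to 903. The ranges overlapped with and without Lyz2. The median difference of these markers was -0.13 in animal 4, where Spp1 differed most, and -0.35 and -0.34 in animals 5 and 6. The markers did not all go one way. Gpnmb, a macrophage glycoprotein, differed by -0.50, -0.62 and -0.88 in animals 4, 5 and 6, Aif1 by 0.70, -0.25 and 0.01, and the leukocyte marker Ptprc by 0.02, 0.25 and -0.21. Bone cells also make Spp1 and Sparc. Of 5 bone and cartilage markers, 4 were below the limit for testing. The bone genes Bglap, Ibsp and Alpl lay at 1 to 1.5, 1.9 to 5.2 and 4.3 to 7.1. The cartilage genes Acan and Col2a1 lay at 29.2 to 56.7 and 32.1 to 59.9, and Col2a1 was higher in all 3 animals. The sum of these 5 was 71.9 to 111 contralaterally and 102 to 113 ipsilaterally.

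Beside the higher Thbs4, Ccn2 and Postn, 4 of 8 fibroblast and tendon markers were higher in all 3 animals and 1, Dcn, was lower. Over all tested probe sets, 12.3% were higher and 15.1% lower in all 3. Taken singly, 4.74% of all tested probe sets were higher without overlap. Of the 8 markers, 5 also stand among the structural partners above. The sum of the 8 was 8359 to 9501 contralaterally and 8726 to 9704 ipsilaterally, which overlap, and none was below the limit. The tendon gene Tnmd differed by 0.77, 0.56 and 0.70 in animals 4, 5 and 6, whereas Col1a1 differed by 0.88, -0.14 and -0.08. The summed intensity of 4 endothelial markers was 588 to 660 contralaterally and 702 to 1018 ipsilaterally, without overlap, but 331 to 416 and 407 to 633 without the brightest, Emcn, with 2 higher and 0 lower in all 3 animals. That of 4 Schwann cell markers was 637 to 758 and 828 to 894, also without overlap, but 201 to 234 and 186 to 249 without the brightest, Pmp22. Of these 4, 2 were higher in all 3 animals, and the myelin gene Mbp was lower (-0.55, -0.44 and -0.14), with Sox10 at 3.1 to 5.6. The 4 adipocyte markers summed to 1023 to 1650 and 1459 to 2345, with 2 higher and 1 lower, the latter being Lep at 2 to 3.9. Without the brightest, Fabp4, the adipocyte sums were 395 to 480 and 694 to 886, without overlap. Most of that was Cfd. The 6 smooth muscle and pericyte markers summed to 615 to 932 and 628 to 781, with 2 higher and 2 lower. The 8 fibre markers summed to 40672 to 48229 and 35719 to 41328, with 1 higher (Ttn) and 3 lower (Ckm, Myh4 and Actn3). They did not move together: the mean difference was 0.35 for Ttn, -0.24 for Ckm, -0.48 for Actn3 and -0.92 for Myh4. The part of these other cells in the matricellular differences was not tested.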

How the data were processed

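Total RNA of 6 muscles was measured on rat expression arrays with 15923 probe sets. The authors deposited 1 intensity per probe set and array, on a linear scale as its values show, and the sources used here do not name the software behind it. The number of arrays limits the precision. A muscle was taken as contralateral where its title carries Cont, and the title's number gave the animal. Of the probe sets, 57 controls were left out. GEO's platform annotation, which can be old, gave 1 symbol for 12789, several for 312 and none for 2822, and 12756 were matched to RefSeq's gene table of assembly GRCr8.

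Values were used as log2(intensity + 15.8), the 20th percentile of all values. Array medians lay within 0.115 of each other, so no further normalization was applied. Only probe sets whose mean log2 value exceeded 5.86, the 40th percentile, were tested. The test was two-sided, from limma 3.58.1 under R 4.3.3: lmFit with animal as a fixed term, eBayes with a trend, and Benjamini-Hochberg adjustment over all 9519. Degrees of freedom were 2 residual and 7.47 prior, and the procedure was tested on simulated data. The pairing comes from the design, both muscles being of the same animal. Deviations from the group means correlated at -0.04, 0.07 and 0.13 within animals 4, 5 and 6, over probe sets. Leaving out an animal kept the same tested probe sets.

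Every member is named. A gene with several probe sets is given by its brightest, up to 4 genes of each list with the smallest p are named, and 2 genes with the most similar profile. The members, lists, motifs and alternatives were chosen with earlier results of these data known. Plots were made with matplotlib 3.10.9 (Python 3.11.15).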

Additional observations from a re-analysis of the deposited data

Results flagged for a closer look

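Tnc is listed because its probe set was too dim to be tested while its ipsilateral libraries all lay above its contralateral ones. The same held for 240 (3.78%) of the 6347 untested probe sets. The ratio of mean intensities was 1.71. Intensities of 10.4 to 36.1 contralaterally and 37.3 to 41.3 ipsilaterally are all under the intensity of 42.4 that corresponds to the limit for testing. Its difference was 0.56 as a mean of 3 animals.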

How the results depend on the processing

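Over 12 alternatives, Thbs4, Ccn2, Postn, Tnc and Spp1 kept their direction. Their ranges were 0.94 to 1.55, 0.79 to 2.07, 0.73 to 1.31, 0.29 to 0.91 and -1.04 to -0.62. Without the replicate block (the pairing by animal), 0 probe sets passed in limma, as with it, and the adjusted p was 0.302 for Thbs4, 0.596 for Ccn2 and Postn, and 0.309 for Spp1, so the block changed no call. The count of probe sets that passed was 0 to 241 when an animal was left out, with 241 without animal 4 and 0 without animal 5 or 6. It was 87 without the block and ipsilateral 4, and 1 without the block, contralateral 4 and ipsilateral 6. Under the latter setting the brighter Sparc probe set turned to -0.08. The dimmer one turned to 0.00 when arrays were centred on their medians and to 0.07 without animal 5. The receptor list's median of 0.13 was 0.05 to 0.13 when an animal was left out and 0.08 without the block, contralateral 4 and ipsilateral 6. The cause of these shifts was not tested. Counts of members with one sign in every animal were not computed where single libraries were left out, since pairs were then broken. Signal near background limits Tnc and Spp1, whose differences depend on the pseudocount: Spp1 was -1.04 with a pseudocount of 1 and -0.62 with one of 43.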
